A study of Macaca mulatta with 8 samples.

Results

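The SLC30A genes encode the zinc exporters (ZnT proteins), which carry zinc out of the cytosol, into vesicles and organelles or across the plasma membrane. The family was taken as every probe set of the array to which the platform annotation gives exactly 1 symbol made of SLC30A and a number. This gave 14 of 52766 probe sets, for 8 of 14132 genes with a single symbol: SLC30A2, SLC30A3, SLC30A4, SLC30A6, SLC30A7, SLC30A8, SLC30A9 and SLC30A10. SLC30A1 and SLC30A5 were not analysed here. The family was picked because 1 probe set annotated as SLC30A4 was among the largest decreases of this same comparison, so both SLC30A4 probe sets are described without a test. The other members were picked by symbol alone.

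The samples are granulosa cells, the somatic cells around the oocyte, from rhesus macaques. The first group (PM-GC, "before hCG") received follicle-stimulating hormone (FSH) only. The second (VVM-GC, "after hCG") received FSH and then human chorionic gonadotropin (hCG), which stands in for the ovulatory surge, and matured in vivo. Each group has 4 RNA samples, each on its own array. The series design calls the cells mural, whereas the source labels speak of cumulus-oocyte complexes. The labels name no animal, age, dose, interval after hCG or batch. The p-values thus measure only the spread between these samples, which may be partly technical.

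ZnT proteins exchange zinc for protons across membranes, and the SLC39A (ZIP) proteins bring zinc back into the cytosol. Metallothioneins bind zinc in the cytosol, and the transcription factor MTF1 switches their genes on when zinc rises. In the follicle, zinc is best known for its accumulation in the maturing oocyte and its release from the egg at fertilisation.

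Values are log2 intensities, so a difference of 1 is a doubling of signal. The median log2 intensity of the arrays lay between 5.44 and 5.54. Arrays correlated at 0.984 to 0.988 within the group before hCG, at 0.974 to 0.984 within the group after hCG and at 0.935 to 0.957 between the groups. Of 9 probe sets of granulosa markers, 8 were lower after hCG and 1 did not pass, beside 7.24% higher and 6.85% lower over all probe sets. The same shares stand beside the marker counts that follow. For counts at an unadjusted p no share over all probe sets was taken, so neither an excess nor a lack is read from them. CYP19A1, the aromatase, fell by 2.08, and INHA, an inhibin subunit, by 0.57 from 14.07, so both remained well above the array median. Among 13 oocyte probe sets none passed (limma adjusted p under 0.05), and none did at an unadjusted p under 0.05; their summed linear signal was 784 to 941 before and 796 to 1069 after hCG, with ZP4 and ZP1, proteins of the egg coat, the strongest. Among 4 erythrocyte probe sets, 1 (ALAS2) fell and 3 did not pass, HBA and HBB included. Their summed linear signal was 1687 to 2343 before and 357 to 1508 after hCG, without overlap. Among 14 leukocyte probe sets, 2 fell and 12 did not pass, TYROBP included. That of CSF1R fell by 2.09, and 1 of CD68 fell by 0.62, with all its values below the array median. The brighter CD68 probe set differed by 0.84 in the other direction and did not pass (limma adjusted p = 0.067). The summed signal of the list was 1737 to 1968 before and 831 to 1955 after hCG. Of 2 theca probe sets, both for CYP17A1, 1 fell by 0.47, and all values of both lay below the array median. None of 11 endothelial probe sets (PECAM1 and VWF the strongest) and none of 10 stromal ones (DCN and COL1A1 the strongest) passed, with 2 of each list at an unadjusted p under 0.05. The calls of ALAS2 (limma adjusted p = 0.051 to 0.084 where lost), CD68 (0.055 to 0.090) and CYP17A1 (0.070 to 0.10) were each lost when any of several single arrays was left out: arrays 3 and 4 before and 1, 2 and 3 after hCG for ALAS2, all but array 1 before hCG for CD68, and all but array 1 before and array 2 after hCG for CYP17A1. HBA was at the threshold (-1.47, limma adjusted p = 0.050027). It passed as lower without array 1 before or array 2 or 4 after hCG (limma adjusted p = 0.026 to 0.046), and with all arrays after repeated quantile normalization (0.041), with the signal filter (0.036), with an intensity trend (0.046), with a replicate block (0.0048) and over genes (0.036 and 0.037). Without array 2 after hCG, 3 of the DCN probe sets passed as higher (1.27 to 1.55), and without array 3 after hCG so did VWF (1.74) and the other CD68 probe set (1.10). The part of these cells in the differences below was not tested. In bulk RNA, fewer cells of a type and less RNA per cell cannot be told apart.

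Over all 52766 probe sets, 14.1% passed limma's test at an adjusted p under 0.05, 7.24% as higher and 6.85% as lower after hCG. The 4 values of each group did not overlap for 19.3%. Of the 12 SLC30A probe sets other than those of SLC30A4, 1 passed as higher, 0 passed as lower and 11 passed in neither direction. At an unadjusted p under 0.05 there were 3. No share over all probe sets was taken for this count, so no excess is read from it. The groups did not overlap for 2 of the 12. The counts of 1 and 2 lie near the shares of 14.1% and 19.3% over all probe sets, so no difference from them is read. The median difference of the 12 was 0.04, against -0.07 over all probe sets.

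**Figure D1:**
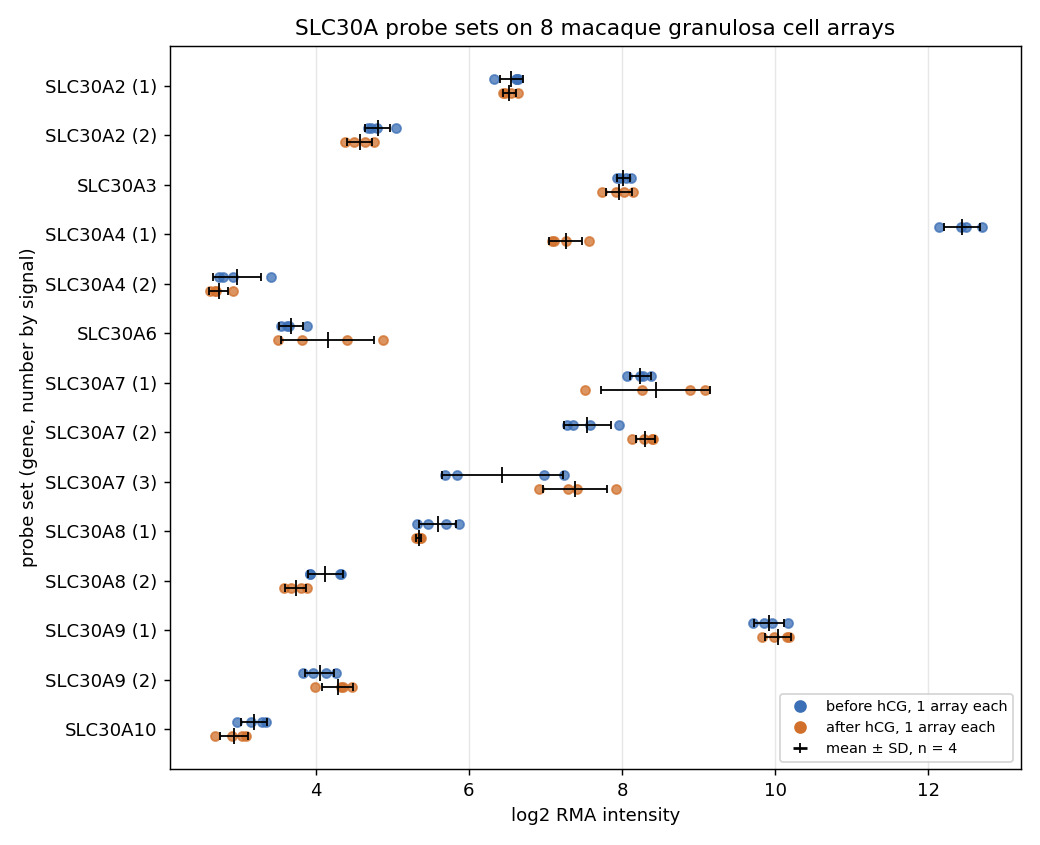
Log2 intensity of the 14 SLC30A probe sets (rows, numbered within a gene by mean signal) on 4 arrays before hCG (blue) and 4 after hCG (orange); ticks and bars are mean ± SD, n = 4. SLC30A4 (1) separates by 5.18, whereas the other 13 differ by 0.95 or less in size.

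SLC30A4 (ZnT4) loads zinc into endosomal and secretory vesicles and is known from the lethal milk mouse, whose milk is poor in zinc. Its first probe set (MmunewRS.631.1.S1_at) read 12.13, 12.43, 12.70 and 12.49 before hCG and 7.27, 7.12, 7.09 and 7.57 after hCG. All 4 arrays before hCG were far above all 4 after hCG, and the arrays within a group were close together. The lowest array before hCG exceeded the highest after hCG by 4.57. The mean was 12.44 ± 0.23 before and 7.26 ± 0.22 after hCG (SD, n = 4), a difference of -5.18 or 36.1-fold. On the deposited linear scale the values were 4489, 5502, 6645 and 5751 before and 154, 139, 136 and 190 after hCG. The ratio of any array before to any array after hCG thus lay between 23.7 and 48.8. All 4 values after hCG remained above the array median, so transcript signal was lower but not at the lower end of the array. The spread within groups was slightly above the median over all probe sets, which was 0.185 before and 0.195 after hCG.

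Only 1 of the 52766 probe sets had a larger decrease, one without a gene symbol that went from 8.70 to 3.41. Increases were larger than this decrease for 42 probe sets.

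The second SLC30A4 probe set (MmugDNA.33.1.S1_at) did not show this pattern. It read 2.73, 2.92, 2.79 and 3.42 before hCG and 2.68, 2.70, 2.62 and 2.91 after hCG. The groups overlapped, and every value lay below the median of the arrays. Its difference was -0.24, of which array 4 before hCG carried the larger share, since the difference was -0.09 without that array. Averaged over both probe sets, SLC30A4 was lower by 2.71.

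The annotation of the first probe set is not settled. Its symbol and gene ID are those of SLC30A4, but the transcript accession listed beside them is, as background knowledge, that of human CACNA2D3, an auxiliary subunit of voltage-gated calcium channels. No other probe set of the array carries CACNA2D3 as its single symbol. The probe sequences were not used here, so which of these transcripts the first probe set binds was not tested, and its values stand under the name SLC30A4 only as the annotation gives it. The second probe set lists no accession.

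**Figure D2:**
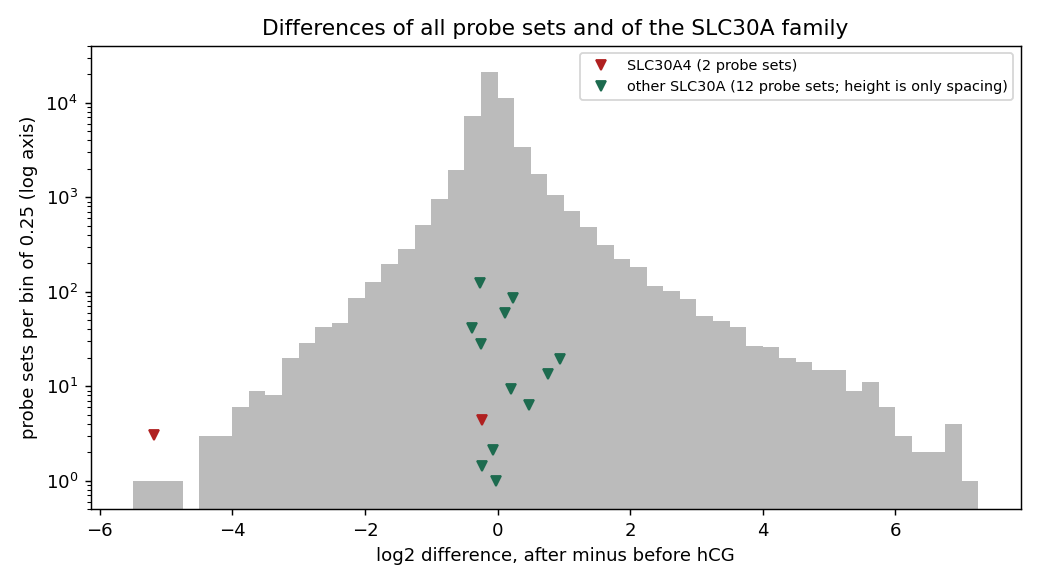
Log2 difference (after minus before hCG, x axis) of all 52766 probe sets in bins of 0.25 (grey, log axis), with the 2 SLC30A4 probe sets in red and the other 12 of the family in green (their height is only spacing). One SLC30A4 probe set lies at -5.18, and the remaining 13 markers lie between -0.39 and 0.95.

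SLC30A7 (ZnT7) and the heterodimer of SLC30A5 and SLC30A6 supply zinc to enzymes folding in the early secretory pathway. SLC30A7 has 3 probe sets. The second (MmugDNA.21947.1.S1_at) read 7.28, 7.59, 7.96 and 7.36 before hCG and 8.39, 8.14, 8.40 and 8.29 after hCG. Every array after hCG was above every array before hCG. The mean rose from 7.55 ± 0.31 to 8.30 ± 0.12 (SD, n = 4), by 0.76 (SE 0.16, limma adjusted p = 0.0096), and the increase ranged from 0.67 to 0.90 when single arrays were left out.

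The other SLC30A7 probe sets varied more between arrays. The third (MmugDNA.26910.1.S1_at) read 5.68, 6.98, 7.25 and 5.84 before hCG and 7.92, 7.30, 7.42 and 6.91 after hCG. Before hCG the arrays split into a low and a high pair, and the high pair reached the range after hCG. Its difference was 0.95 (95% interval 0.14 to 1.75, limma adjusted p = 0.12). The first (MmugDNA.32138.1.S1_at) read 8.24, 8.38, 8.27 and 8.06 before hCG and 9.08, 8.26, 7.51 and 8.89 after hCG. Here arrays 1 and 4 after hCG were above all arrays before hCG and array 3 after hCG below all of them. Its difference was 0.20 (95% interval -0.46 to 0.86), and without array 1 after hCG it was -0.02. The average of the 3 probe sets was 0.63 higher and did not pass (limma adjusted p = 0.055 over genes), so the increase of SLC30A7 rests on 1 probe set of 3.

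SLC30A6 (ZnT6), the partner of SLC30A5, has 1 probe set. It read 3.65, 3.62, 3.89 and 3.54 before hCG and 3.82, 4.41, 4.88 and 3.51 after hCG. Arrays 2 and 3 after hCG were higher and array 4 after hCG was the lowest of all 8. The difference was 0.48 (95% interval -0.11 to 1.06, limma adjusted p = 0.28), and all values lay below the array median.

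SLC30A2 (ZnT2), SLC30A3 (ZnT3) and SLC30A8 (ZnT8) load zinc into secretory vesicles of the mammary gland, synaptic vesicles and insulin granules, in that order. The first SLC30A2 probe set was at 6.55 ± 0.15 before and 6.53 ± 0.08 after hCG (SD, n = 4; 95% interval of the difference -0.27 to 0.22). The second was at 4.81 ± 0.16 and 4.57 ± 0.16 (interval -0.52 to 0.04). Neither passed, and the intervals exclude a doubling or halving of the measured signal in either. All values of the second lay below the array median, where a signal cannot be told apart from background. Its interval therefore does not bear on the transcript. SLC30A3 read 7.93, 8.05, 7.98 and 8.11 before hCG and 7.74, 8.03, 7.92 and 8.14 after hCG, with a difference of -0.06 (95% interval -0.32 to 0.20). The groups overlapped almost entirely.

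The first SLC30A8 probe set read 5.47, 5.70, 5.32 and 5.87 before hCG and 5.38, 5.30, 5.36 and 5.33 after hCG. The second read 3.93, 4.33, 4.32 and 3.93 before hCG and 3.67, 3.81, 3.89 and 3.59 after hCG. The groups overlapped in the first and did not in the second. The differences were -0.25 (limma adjusted p = 0.26) and -0.39 (limma adjusted p = 0.095). Their average, at -0.32, passed the test over genes (limma adjusted p = 0.042), while neither probe set passed alone. All values of the second probe set lay below the array median and those of the first close to it.

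SLC30A9 (ZnT9) acts in mitochondria. Its first probe set (MmugDNA.41101.1.S1_at) was well above the array median, at 9.71, 9.85, 10.17 and 9.95 before hCG and 9.98, 9.83, 10.18 and 10.15 after hCG. The groups overlapped, and the difference was 0.11 (95% interval -0.18 to 0.41, limma adjusted p = 0.64). A doubling or halving of this signal is outside that interval. The second probe set was at 4.05 ± 0.19 before and 4.29 ± 0.20 after hCG (SD, n = 4, limma adjusted p = 0.32), with all values below the array median. SLC30A10, which exports manganese rather than zinc, was at 3.19 ± 0.17 before and 2.93 ± 0.18 after hCG (limma adjusted p = 0.23), below the array median throughout.

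The zinc importers, the SLC39A family, were measured by 18 probe sets for 8 genes. Of the 18, 5 rose (SLC39A6 and SLC39A13), 2 fell (SLC39A8) and 11 did not pass, beside 7.24% higher and 6.85% lower over all probe sets. Their median difference was -0.005. Of the 5 that rose, 1 of SLC39A13 had all its values below the array median. Several of these probe sets carry the same symbol, so the 5 and the 2 stand for 2 genes and 1 gene. SLC39A10 was not analysed here.

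SLC39A6 (ZIP6), a plasma membrane importer, rose in 3 of 4 probe sets. The strongest change was in MmugDNA.40178.1.S1_at, which read 8.69, 8.58, 9.08 and 8.47 before hCG and 10.11, 9.71, 9.56 and 10.16 after hCG. The groups did not overlap, and the increase was 1.18 (SE 0.18, limma adjusted p = 0.0017). A further SLC39A6 probe set rose by 1.14 (SE 0.21, limma adjusted p = 0.0053). The one that rose by 0.65 lost its call without array 1 or 4 before hCG or array 1, 2 or 3 after hCG (limma adjusted p = 0.051 to 0.087). The remaining SLC39A6 probe set differed by 0.36 and passed only without array 1 after hCG (0.69, limma adjusted p = 0.041). The average of all 4 rose by 0.83 (limma adjusted p = 0.0013 over genes).

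SLC39A8 (ZIP8), which also carries manganese, fell in 2 of 5 probe sets. MmugDNA.19008.1.S1_at read 9.78, 8.95, 9.62 and 9.99 before hCG and 7.69, 7.33, 7.83 and 8.30 after hCG. All arrays after hCG were below all before hCG, and the decrease was 3.47-fold (SE 0.25 on the log2 scale, limma adjusted p = 0.0011). MmugDNA.35785.1.S1_at was 3.29-fold lower (limma adjusted p = 0.00044). The other 3 SLC39A8 probe sets differed by -0.23 to -0.17 and did not pass, and the average of all 5 fell by 0.82.

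SLC39A13 (ZIP13), an importer of intracellular vesicles, rose in 2 of 3 probe sets. The increases were 0.66 (SE 0.11, limma adjusted p = 0.0024) and 0.51 (SE 0.11, limma adjusted p = 0.012). All values of the probe set that rose by 0.51 lay below the array median, where a signal cannot be told apart from background. The third, at 0.47, did not pass (limma adjusted p = 0.079). SLC39A14 (ZIP14), a carrier of zinc, iron and manganese, was at 4.87 ± 0.15 before and 4.97 ± 0.22 after hCG (SD, n = 4). It did not pass (limma adjusted p = 0.71), and all its values lay below the array median.

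Metallothioneins were measured by 8 probe sets for 5 genes, of which 3 rose, none fell and 5 did not pass, beside 7.24% higher and 6.85% lower over all probe sets. The 3 stand for 2 genes, MT2A and MT1X, and the median difference of the 8 was 0.23. Some of their transcripts are near-identical, and probes of 1 may bind others, so the values can be uncertain as to the gene. MT2A read 11.62, 12.46, 11.44 and 11.73 before hCG and 13.68, 13.80, 13.36 and 12.93 after hCG. Every array after hCG was above every array before hCG, with an increase of 1.63 (SE 0.25, limma adjusted p = 0.0018). MT1X rose by 0.90 (SE 0.14, limma adjusted p = 0.0017) in 1 of its 4 probe sets. A second MT1X probe set rose by 0.41 (limma adjusted p = 0.027), a call lost without array 1, 2 or 3 before hCG or array 1, 2 or 3 after hCG (limma adjusted p = 0.061 to 0.070), after repeated quantile normalization (limma adjusted p = 0.13) and with an intensity trend (limma adjusted p = 0.068). The other MT1X probe sets were at 0.43 and -0.31 and did not pass; the former passed without array 4 before hCG (0.55, limma adjusted p = 0.018). The average over MT1X rose by 0.36 (limma adjusted p = 0.046 over genes).

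MT1E differed by -0.28 (limma adjusted p = 0.39), MT4 by 0.05 (limma adjusted p = 0.90) and MT3 by -0.89 (limma adjusted p = 0.12). MT3 passed as lower without array 3 after hCG (-1.18, limma adjusted p = 0.026). Neither probe set of MTF1, the zinc sensor, passed, with differences of 0.28 (limma adjusted p = 0.36) and -0.05 (limma adjusted p = 0.87).

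**Figure D3:**
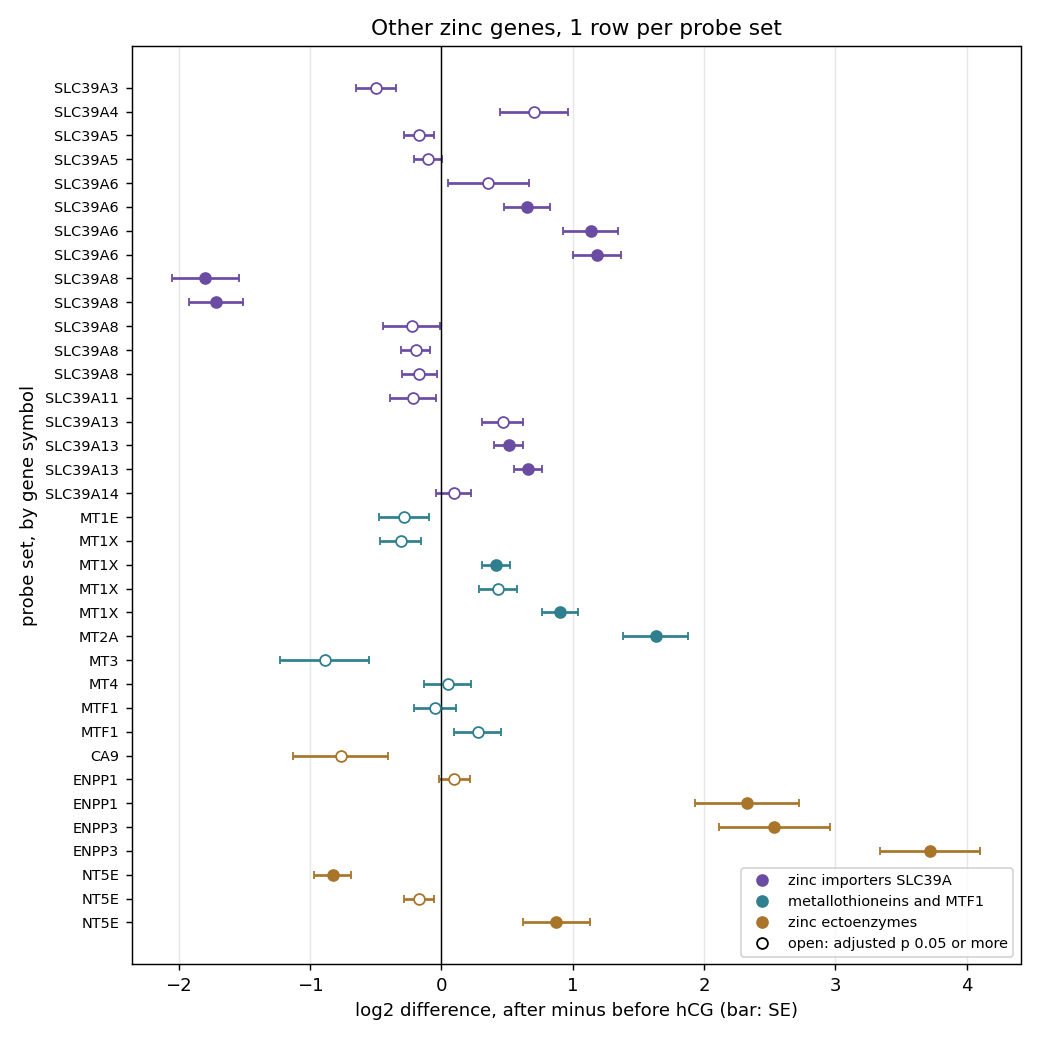
Log2 difference (after minus before hCG) with its SE for every probe set of the zinc importers (purple), metallothioneins and MTF1 (teal) and zinc ectoenzymes (brown); filled points passed at an adjusted p under 0.05. SLC39A8 at -1.80 and -1.72 lies on the left, and SLC39A6, MT2A, ENPP1 and ENPP3 reach 1.18, 1.63, 2.33 and 3.72 on the right.

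Ectoenzymes that receive their zinc in the secretory pathway, where SLC30A5, SLC30A6 and SLC30A7 act, were measured by 8 probe sets for 4 genes; ALPL was not analysed here. Of the 8, 4 rose, 1 fell and 3 did not pass, beside the same 7.24% and 6.85% over all probe sets, and their median difference was 0.49. The 4 stand for 3 genes, with ENPP3 counted in 2 probe sets and NT5E among both the higher and the lower. ENPP3, an ectonucleotide pyrophosphatase, read 4.55, 4.63, 4.78 and 4.17 before hCG and 9.21, 7.53, 7.42 and 8.85 after hCG in MmugDNA.35500.1.S1_at. All arrays after hCG were higher, arrays 1 and 4 most. The increase was 3.72 (SE 0.38, limma adjusted p = 0.00017), and the other ENPP3 probe set rose by 2.53 (SE 0.42, limma adjusted p = 0.0030). ENPP1, of the same family, rose by 2.33 (SE 0.40, limma adjusted p = 0.0034) in 1 of 2 probe sets. The other differed by 0.10, with all values below the array median.

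NT5E (CD73), which makes adenosine from AMP, had probe sets in opposite directions. MmuSTS.1117.1.S1_at fell from 9.23 ± 0.23 to 8.40 ± 0.15 (SD, n = 4, limma adjusted p = 0.0030). MmugDNA.43248.1.S1_at, below the array median, rose by 0.87 (limma adjusted p = 0.048), a call lost with 32 added to each intensity and without any single array but array 3 after hCG (limma adjusted p = 0.069 to 0.12). The third, at -0.17, did not pass, and the average over NT5E differed by -0.04. CA9, a carbonic anhydrase, differed by -0.77 (limma adjusted p = 0.21) and passed only without array 3 after hCG (-1.14, limma adjusted p = 0.013).

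Profiles most like that of the first SLC30A4 probe set were ranked by the root mean square difference over the 8 arrays, each probe set centred on its own mean. Among probe sets with 1 symbol outside the family, the closest were EFNB1 (0.69), an ephrin ligand, RAB17 (0.79), a small GTPase, SLC35G1 (0.81), HSDL1 (0.87), SUOX (0.89), the sulfite oxidase, and MTFR1L (0.94). All 6 were lower after hCG, with differences of -4.20 to -3.46, which the choice by likeness fixes. EFNB1 read 11.25, 11.48, 11.20 and 11.13 before hCG and 7.15, 7.61, 7.38 and 7.06 after hCG. Its arrays were as tightly grouped as those of SLC30A4, whereas SLC35G1 ranged from 7.85 to 9.36 before hCG. The likeness holds for the listed probe sets. Averaged over all probe sets of the gene, EFNB1 differed by -2.75 and SUOX by -2.56, less than in the listed probe sets. In all, 12 probe sets lay within 0.94, and 6 of them carry no single symbol. The 3 closest of all have none. MmugDNA.43195.1.S1_at, at 0.35, read 8.34, 9.17, 8.64 and 8.67 before hCG and 3.54, 3.85, 3.01 and 3.24 after hCG; it is the probe set with the larger decrease given above.

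**Figure D4:**
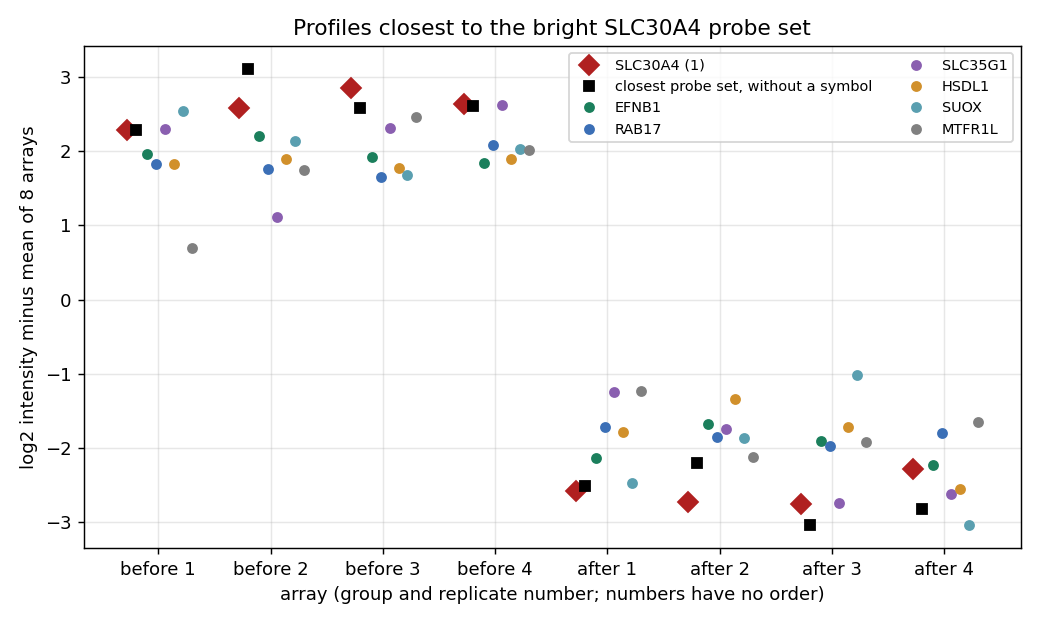
Log2 intensity minus the mean of 8 arrays (y axis) on each array (x axis) for the first SLC30A4 probe set (red diamonds), the closest probe set, which has no symbol (black squares), and the 6 closest probe sets with a symbol (dots). All 8 profiles lie above 0 on the 4 arrays before hCG and below 0 on the 4 after hCG.

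The nearest protein-coding genes on either side of SLC30A4 in the reference gene table (assembly T2T-MMU8v2.0) were looked up after the values had been seen. Of the 3 on each side, GATM, which makes the precursor of creatine, and SQOR, a mitochondrial sulfide oxidase, have probe sets with a single symbol. GATM fell in 2 of 3 probe sets, with differences of -1.82 (SE 0.32, limma adjusted p = 0.0041) and -1.71 (SE 0.34, limma adjusted p = 0.0076), and the third, at -0.46, did not pass. SQOR differed by 0.55 and did not pass (limma adjusted p = 0.18), but did without array 3 after hCG (0.78, limma adjusted p = 0.020).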

How the data were processed

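Total RNA of the 8 samples was amplified in repeated rounds and hybridised to Affymetrix rhesus macaque arrays, per the labels' protocols. The authors deposited intensity values made with Affymetrix Expression Console and RMA (robust multi-array average), per the submitters' processing notes, with no version stated. The values are linear, so log2 was taken and nothing else changed. Of 52865 rows, 99 array controls were left out. By the annotation, 24956 probe sets had 1 symbol, 361 had several and 27449 had none; symbols were updated by gene ID for 24616. The groups were compared with limma 3.58.1 (R 4.3.3), after minus before hCG, on 8 arrays, with Benjamini-Hochberg adjustment over all 52766 probe sets and a threshold of 0.05. The fit was tested on simulated data. The table has no detection calls, and precision is limited by the number of arrays. Gene averages were adjusted over 14132 genes.

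The members and lists were chosen with earlier results of these data known. Named were all members, SLC39A6, SLC39A8, SLC39A10 and SLC39A14, up to 4 SLC39A probe sets per direction past the threshold, all metallothioneins, MTF1 and ectoenzymes, the 6 closest profiles and the strongest markers. Alternatives were scaling, an added 32, a signal filter, a variance trend, a replicate block, gene averages or the brightest probe set, and each array left out.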

Additional observations from a re-analysis of the deposited data

Results flagged for a closer look

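In 100 groups of 4 values (50 SLC30A, SLC39A, metallothionein, MTF1 and ectoenzyme probe sets, each before and after hCG), 3 had 1 array far from the other 3 by Dixon's test, where chance gives about 1 in 20. The first SLC30A2 probe set read 6.33 on array 3 before hCG and 6.61 to 6.64 on the others (gap over range 0.902). SLC39A3 read 9.47 on array 2 after hCG and 9.07 to 9.10 on the others (gap over range 0.917); it did not pass with all arrays (-0.50, limma adjusted p = 0.056) and was lower without that array (-0.60, limma adjusted p = 0.035) and without array 2 before hCG (-0.59, limma adjusted p = 0.041). MT1X read 7.24 on array 4 before hCG and 6.88 to 6.94 on the others (gap over range 0.832) in the probe set that rose by 0.90.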

How the results depend on the processing

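The difference of the first SLC30A4 probe set was -4.91 with 32 added to each intensity and -2.71 as the average of its 2 probe sets, and -5.28 to -5.09 with single arrays left out; the average takes in a probe set below the array median. With gene averages in place of probe sets, 0 SLC30A genes other than SLC30A4 were higher and 1 lower, 2 importers and 2 ectoenzymes were higher, 0 ectoenzymes were lower, and 3411 of 14132 genes passed (1599 higher, 1812 lower). With the brightest probe set of each gene, 0 SLC30A genes, 2 importers and 2 ectoenzymes were higher, and 3359 genes passed (1595 higher, 1764 lower); both settings test fewer features than the 7434 of 52766 probe sets. With single arrays left out, 5682 to 7101 probe sets passed (2938 to 3881 higher, 2689 to 3371 lower), with 1 SLC30A probe set higher and 0 lower each time, 4 to 5 importers higher and 2 to 3 lower, 2 to 4 metallothioneins higher and 0 to 1 lower, and 3 to 4 ectoenzymes higher and 1 to 2 lower. Replicate numbers 1 to 4 occur in both groups, and the labels name no pairing. The deviations of same-numbered arrays correlated at -0.015 to 0.15. Arrays 1, 2, 3 and 4 before hCG matched arrays 2, 1, 4 and 3 after hCG best. So few correlations cannot settle whether same-numbered samples share an animal or a batch. With a replicate block 6742 probe sets passed, and the second MT1X call was lost (limma adjusted p = 0.074). Over 176 pairs of an SLC30A4 paralog's probe set and a setting, 175 kept their side of the threshold. In 5 of the pairs, 4 probe sets with small differences changed sign. The gene settings enter these pairs only for the brightest probe set of each gene. The SLC30A7 probe set that passed is not the brightest, so the loss of its call over genes is not among them. Of the SLC39A probe sets, SLC39A3 also passed as lower after repeated quantile normalization (-0.63, limma adjusted p = 0.027) and with the signal filter (limma adjusted p = 0.045). Over genes it passed as lower both as the gene average (limma adjusted p = 0.035) and as the brightest probe set (limma adjusted p = 0.042). No call among the zinc lists changed direction. The values of SLC30A6, SLC30A10 and the second probe sets of SLC30A2, SLC30A4, SLC30A8 and SLC30A9 lay below the array median. Without detection calls a signal there cannot be told apart from background.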
